A study of Rattus norvegicus with 12 samples.

Results

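The coagulation and plasminogen system was followed through 9 genes in the cells of bronchoalveolar lavage fluid (BALF) of rats: tissue factor F3, the clotting factors F10 and F13a1, the anticoagulants Tfpi, Thbd and Procr, and the plasminogen activators Plat and Plau with the urokinase receptor Plaur. These are 9 of the 14218 genes that a probe set of the array names alone. They have 15 such probe sets, and each gene was read from the one with the highest mean over the 12 arrays, the others serving as a check. Of the 9 genes, 7 passed the filter on low values and were tested; F10 and F13a1 were not.

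The study asked how lipopolysaccharide (LPS), a bacterial cell wall component that provokes inflammation, and low air pressure act together on the lung. The animals were male Sprague-Dawley rats, 8 weeks old, fasted during the experiment. The CTL group received saline by tail vein in normal air, and the LPS group received LPS at 0.5 mg/kg by the same route in normal air. The HPO group spent 6 h in a decompression chamber at 405.35 mmHg, the pressure at 5000 m, and the COMB group received LPS first and then entered the chamber. Each group had 3 arrays, and each array was hybridized with RNA pooled from several rats: by the labels 3 rats in every pool except COMB pools 1 and 2, which list 2 rats each. Pooling averages over animals, so p values measure the spread between these pools only. In RNA of mixed cells, a change in the number of cells of a type and a change in RNA per cell cannot be told apart.

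Tissue factor is the membrane protein that binds factor VII and starts the clotting cascade, which ends in thrombin and fibrin. Tissue factor pathway inhibitor blocks that first step, while thrombomodulin and the endothelial protein C receptor help thrombin to activate protein C, which switches the cascade off. Fibrin is dissolved by plasmin, which tissue-type and urokinase-type plasminogen activators make from plasminogen, and serpins hold these activators back. In injured lungs, tissue factor on epithelial cells and macrophages and poor fibrin clearance are known features.

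In the COMB group, 3 of the 7 tested members were higher than in the CTL group and none was lower. They were tissue factor (F3), the tissue-type plasminogen activator (Plat) and the endothelial protein C receptor (Procr), and thus 1 gene each of the procoagulant, fibrinolytic and anticoagulant sides. Over all 25692 probe sets tested in the same comparison, 8.84% were called higher and 10.2% lower, where called means an adjusted p below 0.05 in limma. The median log2 fold change was 0.17 over the 7 members and -0.04 over all probe sets. Against the LPS group, F3 and Plat were higher in COMB (2 of 7, none lower), beside 6.64% of probe sets higher and 5.27% lower. Against the HPO group, F3 and Procr were higher in COMB (2 of 7, none lower), beside 6.83% higher and 8.75% lower.

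Single exposures gave no called member. In LPS against CTL, limma called 0 of 7 members, beside 0.868% of probe sets higher and 1.18% lower. In HPO against CTL it also called 0 of 7, beside 0.035% higher and 0% lower. At an unadjusted limma p below 0.05, 3 of 7 members passed in LPS against CTL (F3, Procr and Plaur), beside 3796 of 25692 probe sets. In HPO against CTL 3 of 7 passed (F3, Plat and Plaur), beside 2494 of 25692 probe sets. An unpaired, unmoderated test of each probe set by itself, with the same adjustment, called no member in either comparison. Of all 25692 probe sets it called only 1 in LPS against CTL and 0 in HPO against CTL, so it could hardly call a member. The interaction, which asks whether the change with hypoxia differs with LPS, was called for 0 of 7 members, beside 0.0895% of probe sets higher and 0.0467% lower. Its unadjusted limma p was below 0.05 for 1 of 7 members (Plaur), beside 3164 of 25692 probe sets. All 3 comparisons with CTL share the same 3 CTL pools.

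**Figure D1:**
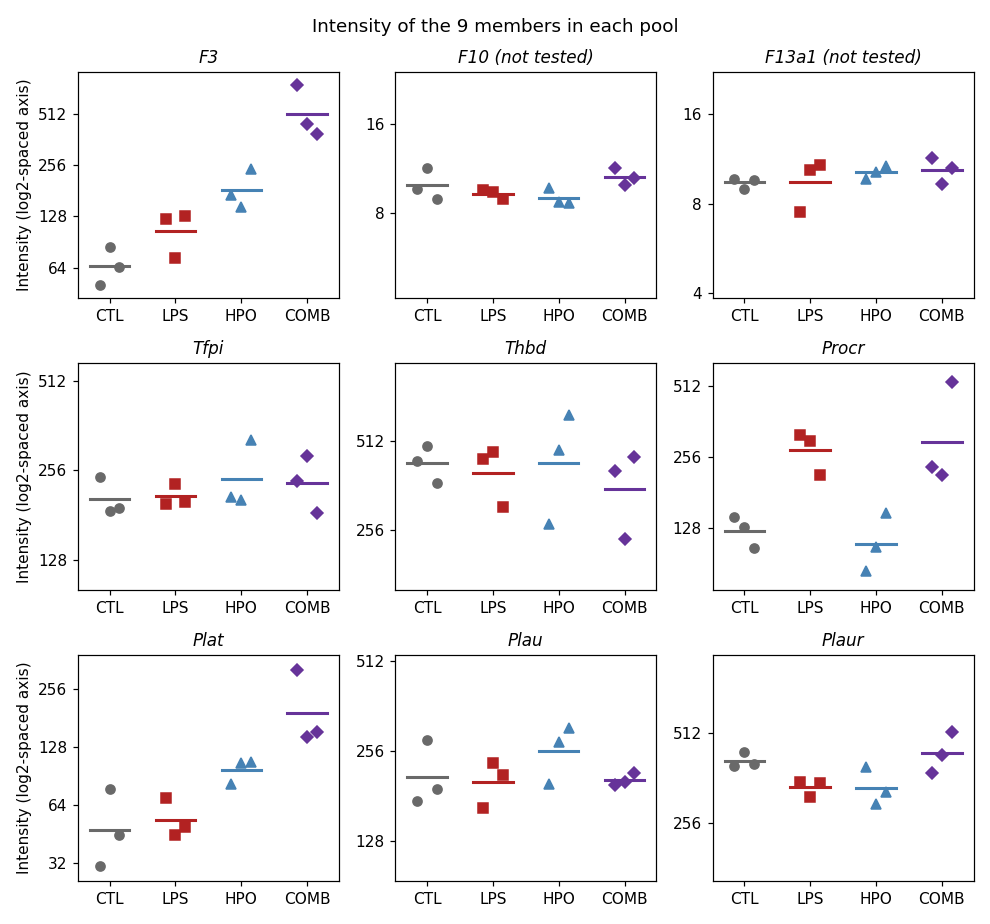
Intensity of the 9 members in the 12 pools, on a log2-spaced axis, with 3 pools in each group. Points are pools and bars are group means of the log2 values. All 3 COMB pools lie above all other pools for F3 and for Plat, while for Procr the LPS and COMB pools lie above the CTL and HPO pools.

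Tissue factor (F3) had intensities of 50.9, 84.4 and 64.9 in CTL pools 1 to 3, and of 123, 72.9 and 129 in the LPS pools. It read 171, 145 and 244 in the HPO pools and 750, 444 and 392 in the COMB pools. The COMB pools stood apart from all others, the HPO pools lay above every CTL and LPS pool, and the LPS and CTL pools overlapped. The group means were 66.7 ± 16.8 for CTL, 108 ± 30.8 for LPS, 186 ± 51.3 for HPO and 529 ± 193 for COMB (SD, n = 3 pools).

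F3 rose 7.67-fold in COMB against CTL (95% confidence interval 4.92 to 11.9, adjusted p = 6.79e-05). This and all later folds are ratios of intensity plus 1, fitted on the log2 scale, where the F3 difference was 2.94 with a standard error of 0.294. It was 4.80-fold higher in COMB than in LPS (adjusted p = 0.00109) and 2.78-fold higher than in HPO (adjusted p = 0.00582). In the order of its levels, HPO differed from CTL by a log2 fold change of 1.46 (adjusted p = 0.104) and LPS from CTL by 0.68 (adjusted p = 0.305), and neither was called. HPO and LPS were not compared with each other by a test. The interaction for F3 was 0.80 on the log2 scale (standard error 0.415, adjusted p = 0.472), so the COMB level was not shown to depart from the product of the single exposures. Without COMB pool 1, the HPO difference from CTL was called (adjusted p = 0.0329). The calls in COMB held without each pool in turn and were lost with the adjusted unmoderated test (adjusted p = 0.0512 against CTL).

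F10, the factor that cleaves prothrombin, and F13a1, the subunit that cross-links fibrin, stayed at the bottom of the arrays. F10 ranged from 8.70 to 11.4 and F13a1 from 7.47 to 11.4, and each exceeded the 20th percentile of its own array (10.1 to 11.3) in 2 of 12 arrays. No difference between groups can be read at this level. Of the 17 coagulation factors and cofactors of the wider list, 13 had a probe set and 7 were tested, and F3 was the only one called in COMB against CTL.

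F5, the cofactor of factor Xa, read 15.2, 23.9 and 14.4 in CTL, 13.2, 11.1 and 15.8 in LPS, 19.9, 16.2 and 17.1 in HPO and 31.9, 32.4 and 19.4 in COMB. The COMB pools lay above the LPS pools and overlapped the CTL pools. F5 was 0.99 higher in COMB than in LPS on the log2 scale (adjusted p = 0.0139), a call lost without LPS pool 2 (0.0571) or COMB pool 2 (0.0536), and its difference from CTL was 0.62 (adjusted p = 0.0715; 0.0196 without CTL pool 2 and 0.0155 without COMB pool 3). Vwf, the carrier of factor VIII and tether of platelets, was lower in COMB than in LPS (24.0 and 33.9 on average, log2 fold change -0.49, adjusted p = 0.0396). The Vwf call held in 10 of 20 alternatives and was lost without CTL pool 1, any LPS pool, HPO pool 1 or 2, or COMB pool 2 or 3 (0.0525 to 0.145). F8, the cofactor of factor IX, was named after its values were seen, as the 1 gene of the wider list that was lower in COMB than in HPO (159 and 212 on average, log2 fold change -0.43, adjusted p = 0.047). The F8 call held in 7 of 21 alternatives and was lost without any 1 pool other than CTL pool 1 and COMB pool 1 (0.058 to 0.155). A second bright F8 probe set, with means of 100 in COMB and 165 in HPO, was also called lower (-0.705, adjusted p = 0.0373). Dimmer F8 probe sets gave -0.12 (adjusted p = 0.497) and -0.05 (adjusted p = 0.811) and were not called.

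Tfpi, the inhibitor of the tissue factor and factor VIIa complex, was not called in any comparison. Its intensities were 243, 187 and 192 in CTL, 198, 230 and 201 in LPS, 209, 203 and 323 in HPO and 235, 286 and 184 in COMB. All 4 groups overlapped. In COMB against CTL the ratio was 1.12 with a 95% confidence interval of 0.834 to 1.51 (adjusted p = 0.613), and over the 5 pairwise comparisons adjusted p lay between 0.613 and 0.979. The second Tfpi probe set, at 17.9 to 23.2, gave -0.05 on the log2 scale in place of 0.17.

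Thbd, thrombomodulin, also overlapped between all groups. It read 439, 492 and 370 in CTL, 444, 469 and 306 in LPS, 269, 475 and 627 in HPO and 406, 240 and 453 in COMB. The ratio of COMB to CTL was 0.821 (95% confidence interval 0.519 to 1.30, adjusted p = 0.569), and 1 other probe set that was tested gave 0.01 in place of -0.29 on the log2 scale. These intervals do not show that the levels of Tfpi or Thbd were equal between groups.

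Procr, the receptor that presents protein C to the thrombin and thrombomodulin complex, behaved otherwise. Its intensities were 142, 129 and 105 in CTL, 318, 300 and 215 in LPS, 83.3, 106 and 148 in HPO and 231, 214 and 535 in COMB. Both groups given LPS lay wholly above both groups not given LPS. The means were 125 ± 19.1, 278 ± 54.7, 113 ± 32.9 and 327 ± 181 in CTL, LPS, HPO and COMB.

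Procr was 2.38-fold higher in COMB than in CTL (95% confidence interval 1.48 to 3.85, adjusted p = 0.0159) and 2.70-fold higher than in HPO (adjusted p = 0.00999). LPS and CTL differed by 1.13 on the log2 scale without reaching the threshold (adjusted p = 0.097), and that difference was called without COMB pool 3 (0.020) and with the 2 groups fitted alone (0.0145). COMB and LPS differed by 0.12 (95% confidence interval -0.57 to 0.81, adjusted p = 0.835), HPO and CTL by -0.18 (adjusted p = 0.929), and the interaction was 0.30 (adjusted p = 0.847). The rise against CTL was lost without CTL pool 3 (0.0666), with the 2 groups fitted alone (0.0553) and with the adjusted unmoderated test (0.186), and it stood at 0.83 on the log2 scale without COMB pool 3, the highest pool. The call against HPO was lost with the 2 groups fitted alone (0.0517) and with the adjusted unmoderated test (0.249).

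Of the 3 members higher in COMB than in CTL, Procr is the one with an entry in the RefSeq promoter table used here; F3 and Plat have none there, nor has Thbd. The bases before its annotated start on the plus strand of GRCr8, chr3:164714477-164714726, are shown because promoters were chosen for members called in COMB against CTL. Capitals mark matches to the motifs searched, an AP-1 element 217 to 211 bases before the start and a hypoxia response element core 12 to 8 bases before it, read on the minus strand.
Procr: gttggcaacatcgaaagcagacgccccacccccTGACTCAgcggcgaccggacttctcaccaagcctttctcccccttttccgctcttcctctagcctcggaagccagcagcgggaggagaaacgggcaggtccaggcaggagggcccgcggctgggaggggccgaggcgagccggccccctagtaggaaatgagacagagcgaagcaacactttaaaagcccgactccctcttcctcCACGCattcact

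Both strands of the 250 upstream bases were searched for AP-1 (TGANTCA), the hypoxia response element core (ACGTG or GCGTG), the GC box (GGGCGG), the STAT element (TTCNNNGAA) and the NF-kB element. AP-1 was found in 6.34% of all 33469 windows, the hypoxia core in 36.7%, the GC box in 30.5%, STAT in 7.67% and NF-kB in 6.33%. For 6 of the 9 members the table holds 7 windows. AP-1 also occurred once in Plaur, the hypoxia core once in Plau and once in 1 of the 2 Tfpi windows, the GC box 3 times in Plau and once in the other Tfpi window, and NF-kB once in F10. F13a1 held none of the 5 motifs. A match describes letters in this window and is not a bound site.

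Pros1, protein S, the cofactor of activated protein C, was the other anticoagulant that rose. It read 20.1, 25.7 and 21.0 in CTL, 27.9, 26.0 and 27.7 in LPS, 23.9, 25.7 and 19.2 in HPO and 40.8, 39.8 and 36.6 in COMB, so that no pool of another group reached the COMB pools. Its log2 fold change was 0.79 against CTL (adjusted p = 9.33e-04), 0.75 against HPO (adjusted p = 0.00182) and 0.51 against LPS (adjusted p = 0.0202). The last was lost without LPS pool 1 (0.0566), LPS pool 2 (0.0693), LPS pool 3 (0.0566) or COMB pool 2 (0.0593). Of the 12 anticoagulants listed, 11 had a probe set and 9 were tested, with 2 higher and 0 lower in COMB against CTL and a median log2 fold change of -0.10.

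Plat, the tissue-type plasminogen activator, read 31.0, 77.8 and 45.0 in CTL, 70.2, 45.0 and 49.5 in LPS, 82.5, 106 and 107 in HPO and 321, 144 and 153 in COMB. As for F3, every COMB pool was above every other pool and the HPO pools were next, above all CTL and LPS pools. The means were 51.2 ± 24.0, 54.9 ± 13.5, 98.7 ± 14.0 and 206 ± 99.7.

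Plat rose 3.96-fold in COMB against CTL (95% confidence interval 2.36 to 6.63, adjusted p = 0.00182) and 3.51-fold against LPS (adjusted p = 0.0062). Against HPO the log2 fold change was 0.96 (adjusted p = 0.0798; 0.0453 without CTL pool 2). HPO and CTL differed by 1.02 (adjusted p = 0.323), LPS and CTL by 0.17 (adjusted p = 0.885), and the interaction was 0.79 (adjusted p = 0.549). Both calls held without each pool in turn, and the adjusted unmoderated test made neither (0.128 against CTL and 0.135 against LPS).

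Plau, the urokinase-type activator, read 174, 278 and 191 in CTL, 165, 233 and 213 in LPS, 199, 274 and 305 in HPO and 197, 201 and 216 in COMB. The groups overlapped, and the ratio of COMB to CTL was 0.976 (95% confidence interval 0.726 to 1.31, adjusted p = 0.925). The second Plau probe set disagreed. At intensities of 17.0, 17.3 and 19.2 in COMB and 24.0, 28.5 and 22.5 in CTL it was called lower by a log2 fold change of -0.46 (adjusted p = 0.0419), and against HPO by -0.50 (adjusted p = 0.0358).

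Plaur, which holds urokinase at the cell surface, read 399, 442 and 404 in CTL, 351, 314 and 349 in LPS, 394, 296 and 325 in HPO and 377, 432 and 517 in COMB. Every LPS and HPO pool was below every CTL pool, and HPO pool 1 alone reached into the range of the COMB pools. No comparison was called: COMB differed from CTL by 0.08 (adjusted p = 0.724), from LPS by 0.38 (adjusted p = 0.0878) and from HPO by 0.39 (adjusted p = 0.0719) on the log2 scale, LPS from CTL by -0.30 (adjusted p = 0.326) and HPO from CTL by -0.30 (adjusted p = 0.484). The interaction was 0.68 (adjusted p = 0.165). Without COMB pool 1 the interaction was called (0.0453), as were COMB against LPS (0.0354) and COMB against HPO (0.0271, and 0.0369 without HPO pool 1). The second Plaur probe set, at 9.87 to 12.0, gave -0.06 in COMB against CTL and -0.04 against HPO.

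**Figure D2:**
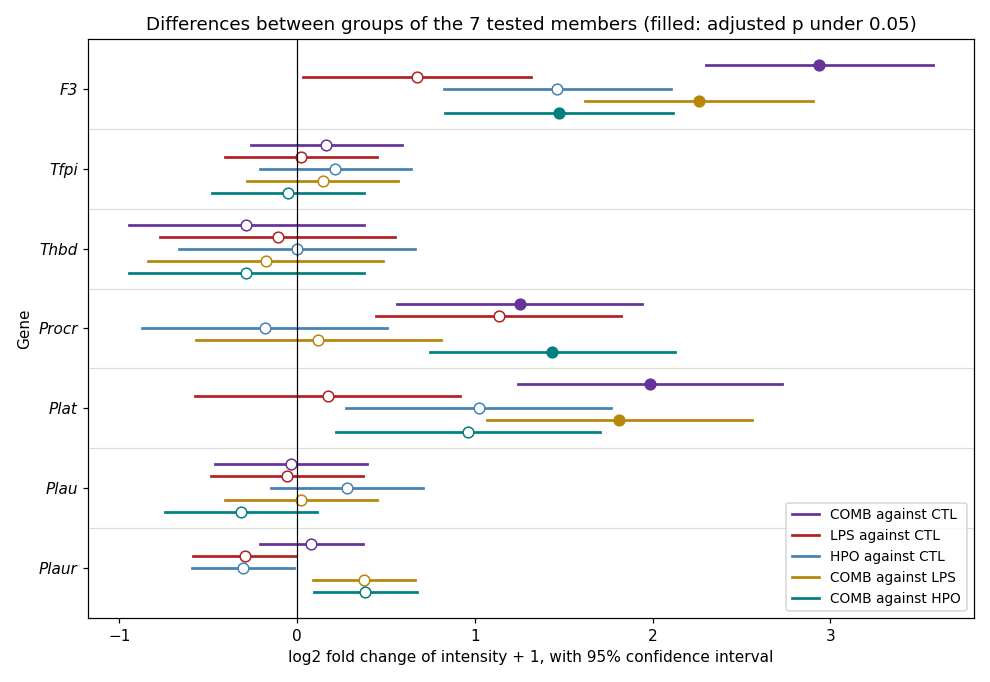
Log2 fold changes of the 7 tested members in 5 comparisons, as points with 95% confidence intervals; filled points have an adjusted p under 0.05. F3 and Plat have filled points at 2.94 and 1.99 in COMB against CTL, Procr at 1.25, and the intervals of Tfpi and Thbd cross 0 in all 5.

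Plasminogen activation beyond the 3 members added no called gene by the brightest probe set of each. Of 7 genes listed, 6 were tested, and in COMB against CTL 1 was higher (Plat) and 0 were lower, with a median log2 fold change of 0.05. The annexin A2 and S100a10 pair, which gathers plasminogen and its activator on cells, was bright in all groups, with Anxa2 at means of 5023 in CTL and 5118 in COMB and S100a10 at 4388 and 4616. A second, dimmer Anxa2 probe set disagreed: at 35.2, 37.4 and 39.2 in CTL, 29.6, 39.5 and 34.2 in LPS and 44.0, 65.1 and 45.1 in COMB, it was called higher in COMB than in LPS by 0.55 on the log2 scale (adjusted p = 0.0322) and differed from CTL by 0.43 (adjusted p = 0.0606), where the COMB and CTL pools did not overlap. Plg itself, made mainly by the liver, stayed at 6.79 to 11.8 and was not tested.

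Of the 5 inhibitors of fibrinolysis listed, 3 were tested in COMB against CTL, and 1 was higher and 0 lower. Serpinb2, plasminogen activator inhibitor 2, read 8.43, 20.1 and 9.72 in CTL, 9.20, 9.07 and 9.10 in LPS, 12.5, 11.6 and 32.8 in HPO and 15.3, 59.4 and 78.8 in COMB. COMB pools 2 and 3 were above all other pools, and COMB pool 1 was below CTL pool 2. The log2 fold change of Serpinb2 was 1.73 in COMB against CTL (standard error 0.535, adjusted p = 0.0406) and 2.08 against LPS (adjusted p = 0.0273). Without COMB pool 1 these were 2.43 and 2.78, both called, and with a pseudocount of 16 they were 1.10 (adjusted p = 0.052) and 1.27, the second called. The call against CTL held in 7 of 20 alternatives, with adjusted p of 0.137 without CTL pool 1, 0.125 without CTL pool 3, 0.123 without COMB pool 2 and 0.143 without COMB pool 3, and from 0.0503 to 0.0567 without any of the LPS pools or HPO pool 1. The call against LPS held in 12 of 20 and was lost without any LPS pool or COMB pool 2 or 3 (0.0724 to 0.0906).

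Serpinf2, the inhibitor of plasmin itself, differed by 0.02 between COMB and CTL (means 22.9 and 22.6, adjusted p = 0.953), a sign that turned when arrays were centered (-0.04) or quantile normalized (-0.01). Serpine2, protease nexin 1, differed by 0.17 (26.0 and 23.0, adjusted p = 0.39). Cpb2, the carboxypeptidase that protects fibrin, stayed at 7.71 to 11.2 and was not tested.

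Among the protease-activated receptors, through which thrombin and factor Xa act on cells, 3 of 4 were tested and 1 was higher in COMB against CTL. F2r, the thrombin receptor, read 68.3, 115 and 97.9 in CTL, 93.7, 94.7 and 45.8 in LPS, 107, 95.4 and 116 in HPO and 217, 309 and 189 in COMB. The COMB pools were above all others. F2r was 2.53-fold higher in COMB than in CTL (adjusted p = 0.00574), 3.12-fold higher than in LPS (adjusted p = 0.00383) and 2.19-fold higher than in HPO (adjusted p = 0.0172), the last lost without HPO pool 2 (0.0603) or COMB pool 2 (0.0638).

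Of the vitamin K cycle, which completes several clotting factors, all 3 genes were tested and 1 was lower in COMB against CTL. Vkorc1l1, a vitamin K epoxide reductase, had means of 67.5 in COMB, 90.5 in CTL and 92.5 in LPS, with log2 fold changes of -0.41 against CTL (adjusted p = 0.0265) and -0.45 against LPS (adjusted p = 0.0276). The first was lost without CTL pool 1 (0.114), COMB pool 1 (0.0509) or COMB pool 3 (0.0811), and the second without LPS pool 1 (0.0657), LPS pool 2 (0.0999), LPS pool 3 (0.0581), COMB pool 2 (0.0507) or COMB pool 3 (0.0738).

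Over the 24 tested genes of the wider list that are not members, 3 were higher and 1 lower in COMB against CTL, with a median log2 fold change of -0.05. In COMB against LPS 4 were higher and 2 lower, and in COMB against HPO 2 were higher and 1 lower, beside the shares of all probe sets given above for each comparison. LPS and HPO against CTL gave 0 each, at the low shares given above. By these counts, tissue factor and Serpinb2 were higher in COMB than in CTL among procoagulant and antifibrinolytic genes, Procr and Pros1 among anticoagulants, and Plat among activators. For Serpinb2, CTL pools 1 and 3 lay below the 20th percentile of their arrays.

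**Figure D3:**
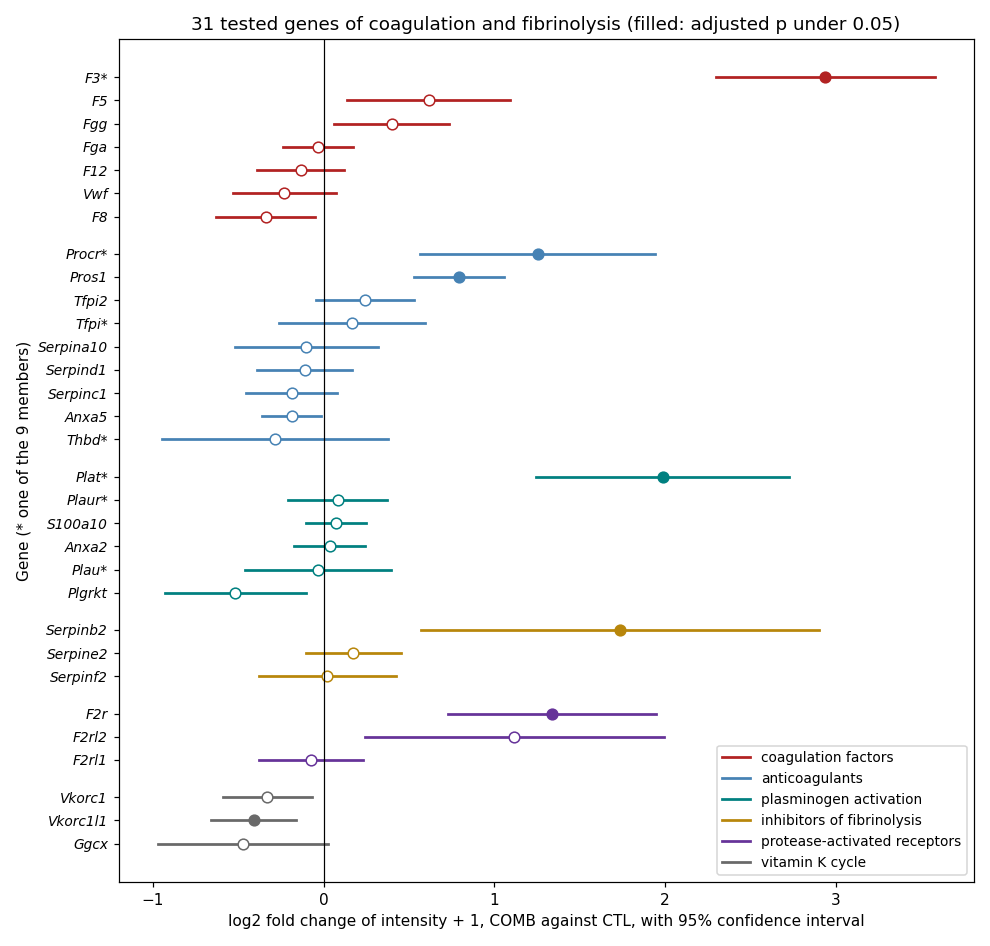
Log2 fold changes in COMB against CTL of the 31 tested genes, by role, as points with 95% confidence intervals; filled points have an adjusted p under 0.05 and starred genes are among the 9 members. Called genes occur in every role, 6 of them higher and Vkorc1l1 lower.

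The genes whose pattern over the 12 arrays was most like that of a called member were found by the root mean square difference of centered log2 values, among genes outside the wider list. The search covered the 12853 genes whose probe set was tested, less those of the wider list. For F3 the nearest was Epcam, an adhesion protein of epithelial cells, at 0.144, against a spread of 1.148 in F3 itself. Calcb at 0.232 and the epithelial keratin Krt18 at 0.234 followed. For Plat the nearest was Cdh1, the cadherin of epithelial junctions, at 0.205 (own spread 0.888), then Osbpl5 at 0.255 and Nedd4 at 0.291. For Procr the nearest were Il1rap, a subunit of the interleukin 1 receptor, at 0.284 (own spread 0.748), Icoslg at 0.305 and Parp9 at 0.310.

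Epcam, Cdh1 and Il1rap were picked for likeness over these same pools, so the closeness of their values to the members follows from that choice. Relative to the CTL mean, F3 stood at 3.50, 2.75 and 2.57 on the log2 scale in the COMB pools and Epcam at 3.45, 2.68 and 2.32, while in the HPO pools F3 stood at 1.37, 1.13 and 1.88 and Epcam at 1.08, 1.10 and 1.65. Plat at 2.72, 1.57 and 1.66 and Cdh1 at 2.48, 1.69 and 1.43 in COMB were similarly placed. Procr at 0.89, 0.78 and 2.10 in COMB was below Il1rap at 1.71, 1.15 and 2.24. COMB pool 1 was the highest pool for F3, Plat, Epcam and Cdh1, and COMB pool 3 for Procr and Il1rap.

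**Figure D4:**
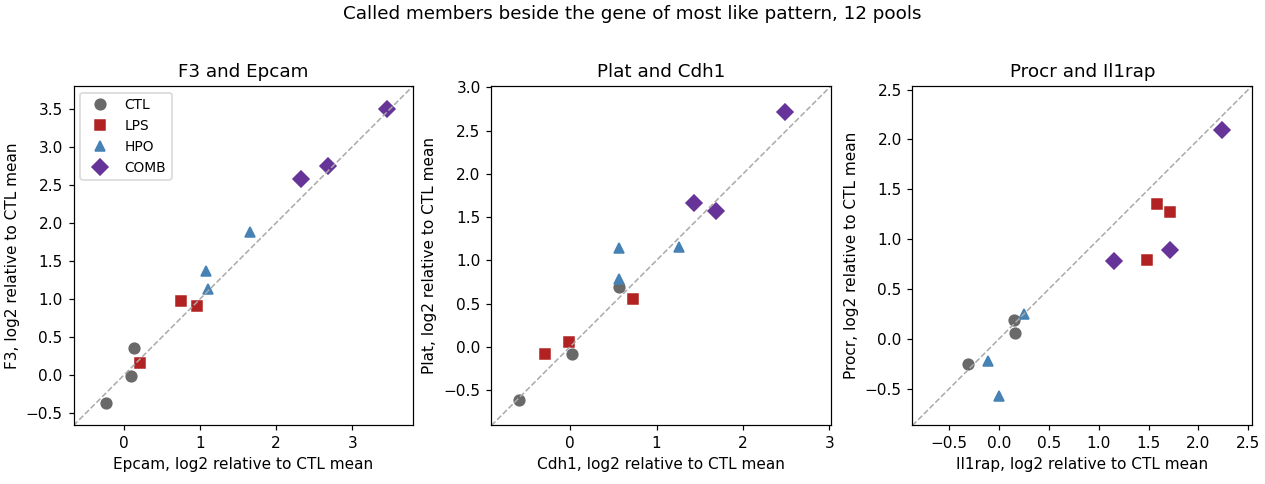
Log2 level relative to the CTL mean of F3, Plat and Procr (vertical axes) against Epcam, Cdh1 and Il1rap (horizontal axes), 1 point per pool for the 4 groups of 3 pools; the dashed line marks equal values. F3 follows the line most closely, and the COMB pools lie at its upper end. The genes on the horizontal axes were chosen for likeness over these same pools.

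Markers of some cell types, most of all airway epithelium, were also higher in COMB than in CTL. All 9 airway epithelium markers were higher in COMB than in CTL (median log2 fold change 2.78), 2 of 9 were higher in LPS and 0 of 9 in HPO. Their summed intensity was 4883 to 7283 in CTL, 9548 to 10217 in LPS, 9204 to 10792 in HPO and 13310 to 18272 in COMB, with COMB pool 1 the highest, and no marker was at 0. Most of these sums was Scgb1a1, at 4107 to 6353 in CTL, 8478 to 8755 in LPS, 7078 to 9407 in HPO and 9489 to 10726 in COMB. Sums here and below cover every listed marker with a probe set, tested or not. Of 9 alveolar epithelium markers 5 were higher in COMB than in CTL, with sums of 1316 to 2283 in CTL, 1677 to 2364 in LPS, 1806 to 2188 in HPO and 2734 to 4362 in COMB. The part of epithelial cells in the F3 and Plat results was not tested.

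Neutrophil markers were higher in COMB than in CTL for 3 of 6 and monocyte markers for 2 of 5 tested, with neutrophil sums of 268 to 2796 in CTL, 1109 to 1844 in LPS, 152 to 279 in HPO and 2817 to 6668 in COMB. Monocyte sums were 636 to 2009 in CTL, 907 to 2896 in LPS, 520 to 960 in HPO and 1949 to 3842 in COMB. Among the CTL pools, pool 2 had the highest sums for neutrophils, monocytes, T and NK cells, airway epithelium, fibroblasts and erythrocytes. The sums of macrophages, B cells, alveolar epithelium, endothelium and platelets were not highest there. Among the tested members, CTL pool 2 was the highest CTL pool for F3, Thbd, Plat, Plau and Plaur, and CTL pool 1 for Tfpi and Procr. Beyond the members, CTL pool 2 was highest for F2r, Serpinb2, Pros1, F5 and Serpinf2, but not for Serpine2, Vkorc1l1, Vwf or F8. Of 7 markers of T and NK cells 2 were higher in COMB than in CTL, with sums of 286 to 1546 in CTL, 274 to 548 in LPS and 499 to 578 in HPO. In COMB the T and NK sums were 715 in pool 1, 5388 in pool 2 and 3923 in pool 3. The monocyte sums of these pools were 1949, 3842 and 3608, and the neutrophil sums 4522, 6668 and 2817. Serpinb2 read 15.3, 59.4 and 78.8 in them. In HPO pools 1 to 3 Serpinb2 read 12.5, 11.6 and 32.8. There the T and NK sums were 578, 552 and 499, and the monocyte sums 945, 960 and 520. The part of these cells in the results was not tested.

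Macrophage marker sums were 18414 to 19163 in CTL, 19651 to 21763 in LPS, 18689 to 19830 in HPO and 15173 to 18365 in COMB. Mrc1 read 5404 to 7759 and Cd68 3663 to 4400 over the pools. In COMB against CTL 2 of 6 macrophage markers (Pparg and Abcg1) were lower and 0 higher, with a median log2 fold change of -0.31. Endothelial cells, a known site of Thbd, Procr and Tfpi, were represented by 4 tested markers, 1 of them higher in COMB. Sums over the 6 endothelial markers with a probe set were 164 to 171 in CTL, 166 to 172 in LPS, 172 to 181 in HPO and 161 to 181 in COMB. The marker higher in COMB was Pecam1, which leukocytes also carry. Of 5 platelet markers 1, Pf4, was higher in COMB, with sums of 136 to 178 in CTL, 142 to 276 in LPS, 185 to 228 in HPO and 270 to 557 in COMB. Fibroblast markers stood out in 1 pool. Their sums were 108 to 211 in CTL, 134 to 247 in LPS and 186 to 277 in HPO, and 876, 138 and 230 in COMB pools 1 to 3, in which Plat read 321, 144 and 153. The 4 tested fibroblast markers differed between COMB and CTL by -0.02 to 1.87 on the log2 scale (adjusted p from 0.0867 to 0.97), and their part in the Plat result was not tested. B cell sums were 46.4, 401 and 303 in COMB and at most 203 elsewhere, and erythrocyte sums were 2497 to 11815 in CTL and 9696 to 12617 in COMB. Array medians lay between 32.72 and 35.61, so no array stood apart in overall brightness.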

How the data were processed

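RNA of BALF cells was pooled within each group and hybridized to Affymetrix Rat Genome 230 2.0 arrays, 3 a group and 12 in all. The authors deposited 1 linear intensity for every probe set on each array. Their background correction and normalization are not given in the sources used here. Groups were taken from the source labels. Values were used as log2(intensity + 1). Of 31099 probe sets, 57 controls were left out and the 25692 that exceeded the 20th percentile of the array on 3 or more arrays were tested. limma 3.58.1 in R 4.3.3 fitted 4 group means (8 residual and 3.94 prior degrees of freedom), with Benjamini-Hochberg adjustment over all probe sets tested and a threshold of 0.05; the fit was tested on simulated data. All p values and intervals are two-sided.

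Gene names come from the platform annotation, in which 20832 probe sets name 1 gene, 436 several and 9831 none. The members and lists were chosen with earlier results of these data known. The genes named are the members, the inhibitors of fibrinolysis and up to 8 others of the wider list, called in COMB against CTL or against LPS with the largest change against CTL. That list has 48 genes, of which 42 had a probe set and 31 were tested; 1 gene of it is not reported here. Promoters are from RefSeq (GRCr8). Alternatives were another pseudocount, scaling, filter, moderation, probe set and test, fits of 2 groups, and leaving out each pool. The other, unmoderated test was the methods' t-test, unpaired, per probe set on the same log2 values; the study names it for comparing groups in general, while for the arrays its methods give a fold criterion and, for the clustering, a paired test. Its adjustment was added here. The number of arrays limits the precision.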

Additional observations from a re-analysis of the deposited data

How the results depend on the processing

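Compared with CTL, the counts of probe sets called were 4895 for COMB, 525 for LPS and 9 for HPO, followed by 3060 for COMB against LPS, 4004 for COMB against HPO and 35 for the interaction. Leaving out 1 pool gave 3107 to 5672, 64 to 784, 0 to 119, 1527 to 3864, 2881 to 4272 and 2 to 641, and members called of 2 to 3, 0 to 1, 0 to 1, 2 to 3, 2 to 3 and 0 to 1. The lowest counts came without CTL pool 3, CTL pool 3, CTL pool 2 or 3 or HPO pool 2 or 3, LPS pool 1, HPO pool 2 and HPO pool 1, in the same order, and the 119 and the 641 without COMB pool 1. With the 2 groups fitted alone, LPS against CTL gave 1147 probe sets and 1 member, HPO against CTL 63 probe sets, COMB against LPS 1734 and COMB against HPO 1933 with 1 member. The unmoderated test after adjustment called 544, 1, 0, 14 and 17 probe sets in the 5 pairwise comparisons and 0 members in each. Unadjusted, it called 4425 probe sets and 2 members in LPS against CTL, 2225 and 1 in HPO against CTL and 5843 probe sets in COMB against LPS. In HPO against CTL, 5 were called with a pseudocount of 16, and 14 with the filter at the array median and 14 with trended moderation, while the interaction gave 78, 56 and 114 in that order and 83 with quantile normalization. Quantile normalization moved the split to 1702 higher and 2375 lower in COMB against LPS (1707 and 1353 as reported), to 352 and 334 in LPS against CTL (223 and 302) and to 39 and 44 for the interaction (23 and 12), and centering each array on its median gave 1384 and 1604 in COMB against LPS and moved HPO against CTL from 9 and 0 to 8 and 1.

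Rat numbers in the labels could pair CTL and LPS pools. Same-numbered pools did not deviate together (correlations 0.039, -0.00764 and -0.00159), so they were not taken as paired; with a replicate block, 736 probe sets and 1 member (Procr, adjusted p = 0.0106) were called in LPS against CTL, against 525 and 0.

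Of the values of single genes under the alternatives, 812 kept direction and call, 81 lost the call, 15 gained it and 18 changed sign. No called difference changed sign among those of the report's probe sets. Without 1 pool, log2 fold changes ran from -0.10 to 0.17 for Serpinf2, -0.17 to 0.17 for Plau and -0.04 to 0.19 for Plaur in COMB against CTL, -0.13 to 0.52 for Plat in LPS against CTL, -0.40 to 0.01 for Procr in HPO against CTL, -0.30 to 0.36 for Procr in COMB against LPS and -0.12 to 0.54 for its interaction. The signs turned for Plaur in COMB against CTL at -0.038 without COMB pool 3 and for Procr in HPO against CTL at 0.014 without HPO pool 1. Serpinf2 was -0.006 with quantile normalization and -0.035 with centering. Other probe sets gave -0.054 for Tfpi, 0.008 for Thbd and -0.056 for Plaur in COMB against CTL, and -0.044 for Plaur in COMB against HPO. The cause of these changes was not tested. With 3 pools a group, the precision is limited, and F10 and F13a1 are too dim to compare.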
